A study of Anolis carolinensis with 15 samples.

Results

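The genes examined here were osteoclast genes and the signals and receptors through which connective tissue cells control osteoclasts, read in sorted *col3a1*+ tail cells of *Anolis carolinensis*, the green anole. They were chosen by symbol, and 9 of the 10 symbols were among the 26523 genes listed for every library. These were 4 osteoclast genes (*acp5*, *nfatc1*, *clcn7* and *tcirg1*), 2 receptors (*tnfrsf11a* and *csf1r*) and 3 signals (*tnfsf11*, *tnfrsf11b* and *csf1*). The tenth, *ctsk*, was not found under that symbol and has no value here. Tails of lizards aged 9 to 12 months were amputated and had regrown until D7, D14 or D28 without drug treatment, or until D21 under intraperitoneal injections of zoledronic acid (ZA), a bisphosphonate drug that blocks bone resorption, or of PBS, its vehicle. ZA was given from 7 days before amputation and 3 times per week. Each of the 5 groups had 3 libraries, called A, B and C. Cells were fixed, labelled with fluorescent probes for *col3a1* and for *krt5*, an epidermal keratin, and sorted. For ZA and PBS the gate took *krt5*-negative cells, whereas for the timepoints the study's text describes the gate both as *krt5*-negative and as *krt5*-positive, and *krt5* itself was not found under that symbol. The drug was given to the whole animal and not to osteoclasts alone. For PBS A the treatment entry of the sample record gives no treatment, and for ZA A it gives PBS. Groups here follow the titles.

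Osteoclasts are large multinucleated cells of the macrophage lineage that dissolve bone and calcified cartilage. In mammals, stromal cells make CSF1, which keeps the precursors alive through the receptor CSF1R, and RANKL, the product of *tnfsf11*, which drives them to become osteoclasts through RANK, the product of *tnfrsf11a*. Osteoprotegerin, the product of *tnfrsf11b*, is a decoy that binds RANKL. RANK signalling induces the transcription factor NFATc1, and the mature cell acidifies the bone surface with a proton pump that contains the TCIRG1 subunit, balances the charge with the chloride transporter CLCN7, digests collagen with cathepsin K and carries the acid phosphatase ACP5. Of these genes, *nfatc1*, *clcn7* and *tcirg1* are also used by many other cells, whereas *acp5* is a classical stain for osteoclasts.

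Library totals ranged from 4237978 counts in ZA A to 12699682 in D14 A. Values are given as counts-per-million (CPM) scaled by TMM factors over the 15 libraries, so that 1 count was worth 0.0732 to 0.258 CPM. Gene lengths were not used, and levels of different genes are therefore not compared. In D28 A, PBS A and ZA A, genes with 1 to 5 counts made up 22.2%, 18.2% and 24.0% of the genes with 1 to 30 counts, against 32.8% to 35.9% in the other 12 libraries. These 3 libraries stand apart, and values without them are given beside part of the results only. The study states that a D14 library was sequenced before the other libraries of the time course, but the labels do not mark which. It also reports similar batch effects among the PBS and ZA libraries, without naming the libraries. All 3 D14 libraries had few genes at 0, with 1623 to 1642, against 3462 to 6614 in the other 12 libraries. All 12 fibroblast markers were listed, and 11 or 12 of them had counts in each library, with summed levels from 9800 to 104038 CPM. Markers of other cell types were counted as well, with sums of 421 to 6034 CPM for 5 epidermal markers and of 50.4 to 276 CPM for 14 macrophage and leukocyte markers. Because the RNA came from pools of cells, fewer cells of a type and less RNA per cell cannot be told apart.

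The genes fell into a well counted group and a scarce group. *nfatc1* had 302 to 2190 counts per library, *clcn7* 443 to 1323 and *tcirg1* 101 to 640. *csf1r* had 59 to 585 counts, *csf1* 50 to 991, *tnfsf11* 15 to 301 and *tnfrsf11a* 14 to 104. *acp5* was counted in 10 of 15 libraries with at most 92 counts, and *tnfrsf11b* in 13 of 15 with at most 21. A count of 0 allows up to 3 counts, which was 0.219 to 0.774 CPM depending on the library, and this floor covers counting error only. From the lowest to the highest library, *csf1* spanned 13.7-fold, *csf1r* 11.2-fold and *tnfsf11* 10.2-fold in CPM, against 2.54-fold for *clcn7*.

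**Figure D1:**
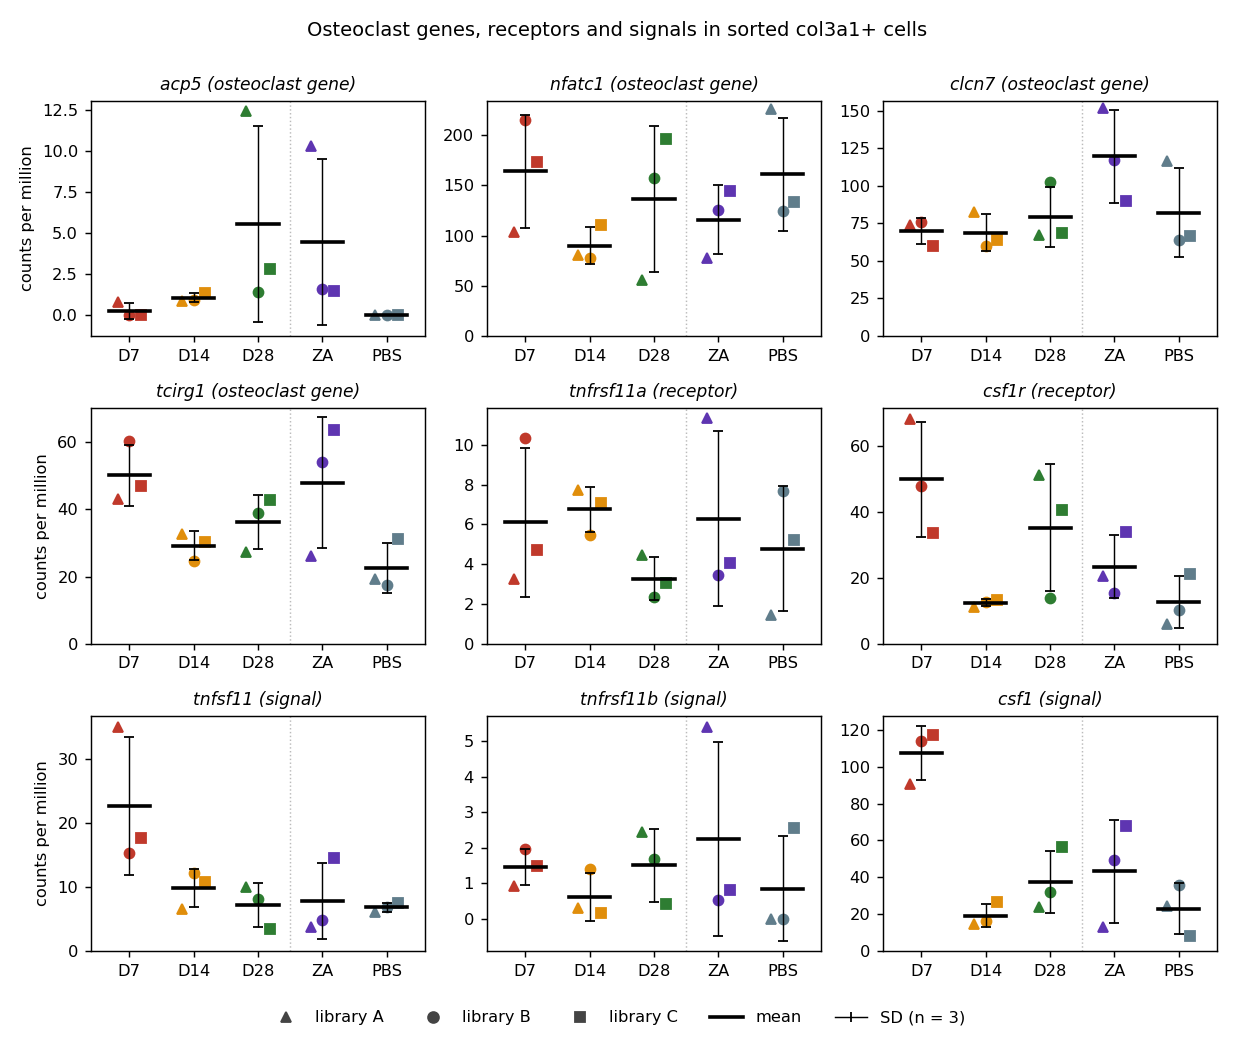
Levels of the 9 genes in CPM (vertical axes, linear, 1 per panel) at D7, D14 and D28 and, right of the dotted line, under ZA and PBS, with 1 point per library and the mean and SD of 3 libraries as lines (SD bars below 0 have no meaning as levels). *csf1* lay between 90.7 and 117 CPM at D7 and at 56.2 CPM or less at D14 and D28, and *acp5* was at 0 in all PBS libraries.

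The time course asked which genes marked the early, middle and late stage of regrowth. *csf1*, *csf1r*, *tnfsf11*, *nfatc1* and *tcirg1* had their highest means of the time course at D7. *csf1* and *csf1r* fell at D14 against D7, and *csf1* also fell at D28 against D7, whereas no osteoclast gene passed the test between any pair of timepoints. At D14 against D7, 2 of the 9 genes passed the edgeR quasi-likelihood test at a Benjamini-Hochberg adjusted p under 0.05, both lower, while 4.62% of all 21326 genes tested passed, 2.40% being lower. At D28 against D7, 1 of 9 passed, also lower, against 8.26% of all genes and 4.21% lower. At D28 against D14, 0 of 9 passed in edgeR, against 1.03% of all genes, with 2 of 9 at an unadjusted p under 0.05 (11.0% of all genes), 1 of 9 passing in DESeq2 (3.73% of all genes) and 0 in limma. Median log2 fold changes of the 9 genes were -0.88, -0.47 and 0.61 in these 3 comparisons, against 0.05, 0.13 and 0.04 over all genes. Libraries of the 2 timepoints did not overlap for 5, 4 and 3 of the 9 genes, which was also seen for 42.7%, 25.0% and 20.6% of all genes. These counts include *acp5* each time, which entered the fit only through its counts at D14 and D28. With an absolute log2 fold change over 2 required as well, *csf1r* and *csf1* passed at D14 against D7 (2.39% of all genes) and 0 of 9 at D28 against D7 (4.27%) and at D28 against D14 (0.750%). Without D28 A, 3, 2 and 0 of the 9 genes passed on the adjusted p, while the share of all genes that passed was 17.1%, 20.2% and 4.09%. The 3 comparisons share libraries and are not independent of each other.

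**Figure D2:**
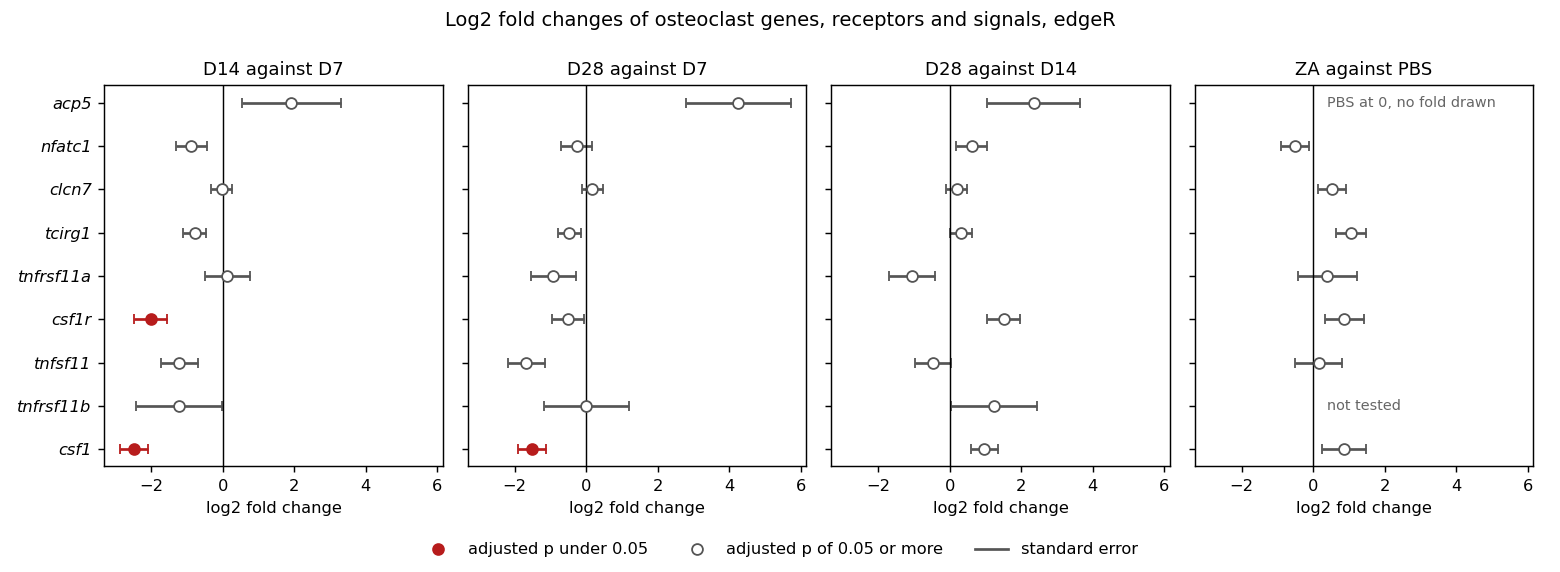
Log2 fold changes from edgeR (horizontal axes) with their standard errors for the 9 genes in 4 comparisons, filled where the adjusted p was under 0.05. The filled points are *csf1r* and *csf1* at D14 against D7 and *csf1* at D28 against D7, and for ZA against PBS *tnfrsf11b* was not tested and no fold is drawn for *acp5*, which was at 0 in all PBS libraries.

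*csf1*, the growth factor for macrophages and osteoclast precursors, lies on chromosome 4 from 188440657 to 188466437 (rAnoCar3.1.pri, RefSeq annotation). It had 90.7, 114 and 117 CPM at D7, 14.8, 16.6 and 26.5 CPM at D14, and 23.8, 32.2 and 56.2 CPM at D28. All D7 libraries were above all others of the time course, and D28 overlapped D14. The mean was 19.3 ± 6.30 CPM at D14 and 107 ± 14.5 CPM at D7 (SD, n = 3 each), and *csf1* fell by 2.48 on the log2 scale at D14 (SE 0.40, edgeR adjusted p = 0.00797). At D28 it averaged 37.4 ± 16.8 CPM and was below D7 with a log2 fold change of -1.52 (SE 0.38, edgeR adjusted p = 0.0330). D28 against D14 gave a log2 fold change of 0.96 (SE 0.38, edgeR adjusted p = 0.354). The call at D14 was lost with edgeR adjusted p of 0.0518 without D7 B, 0.0543 without D14 A and 0.0582 without D14 B, at log2 fold changes of -2.44, -2.31 and -2.38. Of all genes, 0.321%, 0.523% and 0.625% passed in these fits, against 4.62% with all libraries. The call at D28 was lost without D7 A, D7 B, D7 C, D14 B or D28 B, with edgeR adjusted p of 0.0523, 0.105, 0.117, 0.0520 and 0.0723 at log2 fold changes from -1.63 to -1.41. Of all genes, 6.09%, 1.52%, 1.37%, 5.47% and 7.58% passed there, against 8.26% with all libraries. Without D28 A the call at D28 was kept, with -1.27 (edgeR adjusted p = 0.0233), while 20.2% of all genes passed.

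*tnfsf11*, which encodes the osteoclast differentiation factor RANKL, lies on chromosome 3 from 155305751 to 155337839. It had 35.1, 15.3 and 17.6 CPM at D7, 6.52, 12.2 and 10.8 CPM at D14, and 10.02, 8.23 and 3.43 CPM at D28. Each D7 library was above each D14 and D28 library, and D14 overlapped D28. The mean was 9.84 ± 2.96 CPM at D14 and 22.7 ± 10.8 CPM at D7, a log2 fold change of -1.21 (SE 0.51) that did not pass (edgeR adjusted p = 0.190). At D28 it averaged 7.22 ± 3.41 CPM, a log2 fold change of -1.68 against D7 (SE 0.52, edgeR adjusted p = 0.0652). Without D28 A this comparison passed, with -1.97 (edgeR adjusted p = 0.0234), as it did with DESeq2 on all libraries, with -1.61 (adjusted p = 0.0245). Of all genes, 20.2% and 17.7% passed in these fits, against 8.26% in edgeR with all libraries.

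*tnfrsf11b*, the gene of the decoy osteoprotegerin on chromosome 4 from 19162573 to 19178890, was near the limit of detection. Its counts were 8, 17 and 11 at D7, 4, 19 and 2 at D14, and 18, 15 and 4 at D28. The groups overlapped in every pair, and no timepoint differed by the test, with log2 fold changes of -1.23 at D14 against D7, 0.01 at D28 against D7 and 1.24 at D28 against D14 (SE from 1.19 to 1.20, edgeR adjusted p = 0.615, 0.998 and 0.794). The balance of RANKL to its decoy was read within each library as the log2 ratio of *tnfsf11* to *tnfrsf11b* counts with 0.5 added to each, which needs no library size but does not correct for gene length. The mean ratio over 3 libraries was 3.87 ± 1.15 (SD) at D7, 4.38 ± 1.32 at D14 and 2.40 ± 0.48 at D28. D28 lay 1.98 below D14 with p = 0.1 in a two-sided exact permutation test, the smallest p that 3 against 3 libraries can give, and 1.46 below D7 with p = 0.2. D14 exceeded D7 by 0.51 with exact permutation p = 0.6. Adjusted over 4 comparisons of this ratio, the exact permutation p was 0.4 or more in each.

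*csf1r*, the receptor of CSF1 and a marker of macrophages and osteoclast precursors, lies on chromosome 2 from 99050052 to 99094036. It had 68.2, 47.7 and 33.4 CPM at D7, 11.2, 12.6 and 13.3 CPM at D14, and 51.2, 13.9 and 40.4 CPM at D28. The D14 libraries were close together and below every other library of the time course, and D28 spanned most of the range, with D28 B next to D14. The mean was 12.4 ± 1.07 CPM at D14 and 49.7 ± 17.5 CPM at D7, and *csf1r* fell by 2.01 on the log2 scale (SE 0.46, edgeR adjusted p = 0.0318). This call was lost without any 1 of the D7 or D14 libraries, at edgeR adjusted p of 0.0844, 0.105 and 0.0781 without D7 A, B or C and of 0.143, 0.143 and 0.1 without D14 A, B or C, with log2 fold changes from -2.23 to -1.73. Of all genes, 3.22%, 0.321% and 0.547% passed without D7 A, B or C, against 4.62% with all libraries. Without D14 A, B or C, 0.523%, 0.625% and 1.49% of all genes passed. At D28 the mean was 35.1 ± 19.2 CPM, giving log2 fold changes of 1.50 against D14 (SE 0.46, edgeR adjusted p = 0.203) and -0.51 against D7 (SE 0.45, edgeR adjusted p = 0.4995). Without D28 B the comparison of D28 with D14 passed, with 1.89 (edgeR adjusted p = 0.0412, with 0.961% of all genes passing), and with DESeq2 on all libraries it passed with 1.56 (adjusted p = 0.0427, with 3.73% of all genes passing). Of the 9 fits with 1 library left out, only 1 passed. Their log2 fold changes ran from 1.16 to 1.89, with edgeR adjusted p up to 0.631.

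Markers of the cells that normally carry *csf1r* were examined beside it. Of the other macrophage and leukocyte markers, 10 were tested in the time course, and 0 passed in each of the 3 comparisons in edgeR, with 1, 2 and 0 at an unadjusted p under 0.05. Of all genes, 21.4%, 26.5% and 11.0% had such a p. Without D28 A, 1, 1 and 0 of these markers passed, the first 2 higher, against 17.1%, 20.2% and 4.09% of all genes. DESeq2 passed 0, 2 and 0 of these markers, against 12.4%, 17.7% and 3.73% of all genes. With limma 0 of them passed at each prior count and with library weights. The median log2 fold changes of these markers were -0.26 at D14 against D7, 0.76 at D28 against D7 and 1.26 at D28 against D14. The summed level of all 14 listed markers, *csf1r* included, was 93.3 to 126 CPM at D7, 74.0 to 101 CPM at D14 and 62.3 to 179 CPM at D28. Of this, *csf1r* alone held 33.4 to 68.2 CPM at D7, 11.2 to 13.3 CPM at D14 and 13.9 to 51.2 CPM at D28. The sums at D14 and D7 thus overlapped and include the fall of *csf1r*, so that they do not show a fall of the other markers. Over the same libraries the fibroblast markers summed to 26125 to 29465 CPM at D7, 9800 to 11832 CPM at D14 and 29897 to 104038 CPM at D28, and the epidermal markers to 421 to 796, 2974 to 4238 and 785 to 4146 CPM. Collagen genes, *col3a1* among them, made up most of the fibroblast sums. Of the fibroblast markers other than collagens, only *postn* was lower in every D14 library than in every D7 and D28 library. Thus the D14 libraries, in which the means of *csf1r* and *csf1* were lowest, also had the lowest fibroblast sums of the time course, epidermal sums above those of every D7 library and the fewest genes at 0, and 1 of them was sequenced before the rest. The part of these in the *csf1* and *csf1r* values was not tested.

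**Figure D3:**
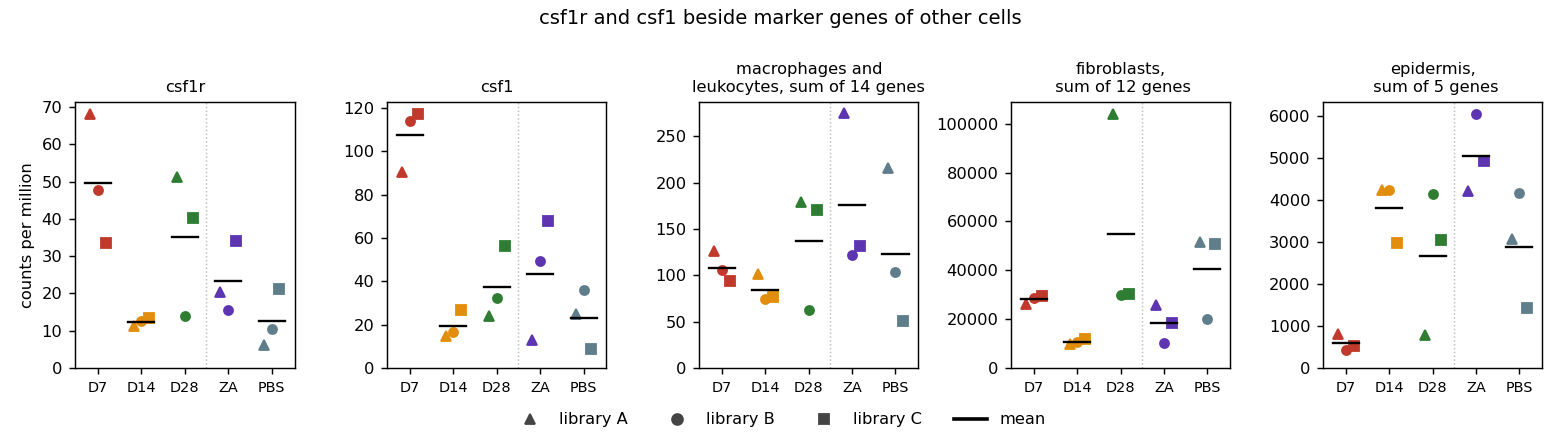
Levels of *csf1r* and *csf1* and summed levels of macrophage and leukocyte, fibroblast and epidermal markers in CPM (vertical axes), 1 point per library with the group mean as a line. At D14 the fibroblast sums were 9800 to 11832 CPM, below all D7 and D28 libraries. The macrophage and leukocyte sums of 74.0 to 101 CPM, which include *csf1r*, overlapped those of D7 and D28.

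*tnfrsf11a*, which encodes RANK and lies on chromosome 4 from 114813515 to 114859675, had 3.26, 10.4 and 4.71 CPM at D7, 7.71, 5.49 and 7.06 CPM at D14, and 4.47, 2.33 and 3.03 CPM at D28. D7 overlapped both later timepoints, and all D28 libraries were below all D14 libraries. None of the comparisons passed, with log2 fold changes of 0.13 at D14 against D7, -0.92 at D28 against D7 and -1.05 at D28 against D14 (SE 0.62 to 0.64, edgeR adjusted p = 0.934, 0.384 and 0.612).

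Among the osteoclast genes, *acp5*, on chromosome 2 from 193793162 to 193823138, had 7, 0 and 0 counts at D7, 12, 13 and 17 at D14, and 92, 13 and 28 at D28. In CPM these were 0.816, 0 and 0, then 0.890, 0.951 and 1.38, then 12.5, 1.445 and 2.83, so that the timepoints did not overlap in any pair. The nearest libraries were close, with D7 A beside D14 A and D14 C beside D28 B, where 3 counts were worth 0.350 CPM in D7 A and 0.334 CPM in D28 B. In counts, D28 B lay within the D14 range, so that this separation is within counting error. D28 A alone held 92 of the 133 counts of its group. The log2 fold change was 4.25 at D28 against D7 (SE 1.47, edgeR adjusted p = 0.0924), 1.91 at D14 against D7 (SE 1.38, edgeR adjusted p = 0.468) and 2.34 at D28 against D14 (SE 1.31, edgeR adjusted p = 0.573). Without D28 A these were 2.92 at D28 against D7 (edgeR adjusted p = 0.155) and 1.01 at D28 against D14 (edgeR adjusted p = 0.728). D28 against D7 passed with DESeq2 on all libraries (adjusted p = 0.00776), in limma (adjusted p from 0.0450 to 0.0495 over prior counts of 0.5, 1 and 5) and, in edgeR, without D7 A (adjusted p = 0.0396), the only D7 library with a count. Of all genes, 17.7%, 8.29% to 9.57% and 6.09% passed in these fits. Since *acp5* entered the fits only through its counts at D14 and D28, these p-values are not evidence of their own for a difference from D7.

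The remaining osteoclast genes were abundant and showed no call. *nfatc1*, on chromosome 4 from 73112452 to 73292679, overlaps 1 other annotated gene, *LOC134298678*, so that its counts are uncertain to that extent. It had 104, 215 and 173 CPM at D7, 81.1, 78.1 and 111 CPM at D14, and 55.9, 158 and 197 CPM at D28, with overlap in every pair and log2 fold changes of -0.88, -0.27 and 0.61 at D14 against D7, D28 against D7 and D28 against D14 (edgeR adjusted p = 0.276, 0.736 and 0.693). *tcirg1*, on chromosome 1 from 237919622 to 237947006, had 43.0, 60.4 and 47.0 CPM at D7, 32.8, 24.5 and 30.3 CPM at D14, and 27.3, 39.0 and 42.8 CPM at D28. Each D14 and each D28 library was below each D7 library, with log2 fold changes of -0.79 at D14 (SE 0.32, edgeR adjusted p = 0.173) and -0.47 at D28 (SE 0.32, edgeR adjusted p = 0.367). *tcirg1* at D14 against D7 passed without D28 A, a library of neither timepoint, with the log2 fold change still at -0.79 (edgeR adjusted p = 0.0466). In that fit 17.1% of all genes passed, against 4.62% with all libraries. *clcn7*, annotated on a sequence not placed on a chromosome, was the steadiest of the 9 genes, with 60.1 to 75.8 CPM at D7, 59.8 to 82.7 CPM at D14 and 67.4 to 102 CPM at D28, and log2 fold changes between -0.03 and 0.20.

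Other defining osteoclast genes were scarce. *calcr*, the calcitonin receptor, had 0 to 71 counts per library with a median of 13, and *dcstamp*, needed for fusion of osteoclast precursors, had 0 to 57 with a median of 16. *ocstamp* had counts in 8 of 15 libraries, and *siglec15* and *atp6v0d2* in 4 of 15 each with at most 7 and 4 counts. *mmp9*, a gelatinase of osteoclasts that many other cells also make, had a mean of 349 ± 29.3 CPM at D7, 71.7 ± 13.1 CPM at D14 and 7.40 ± 5.09 CPM at D28. It fell in each comparison, with log2 fold changes of -2.29 at D14 against D7, -5.54 at D28 against D7 and -3.25 at D28 against D14 (edgeR adjusted p = 0.0174, 0.000979 and 0.00861). *itgb3*, the integrin subunit with which osteoclasts hold on to bone and which fibroblasts and platelets use as well, fell by 2.17 at D14 and by 1.81 at D28 against D7 (edgeR adjusted p = 0.00735 and 0.00982).

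**Figure D4:**
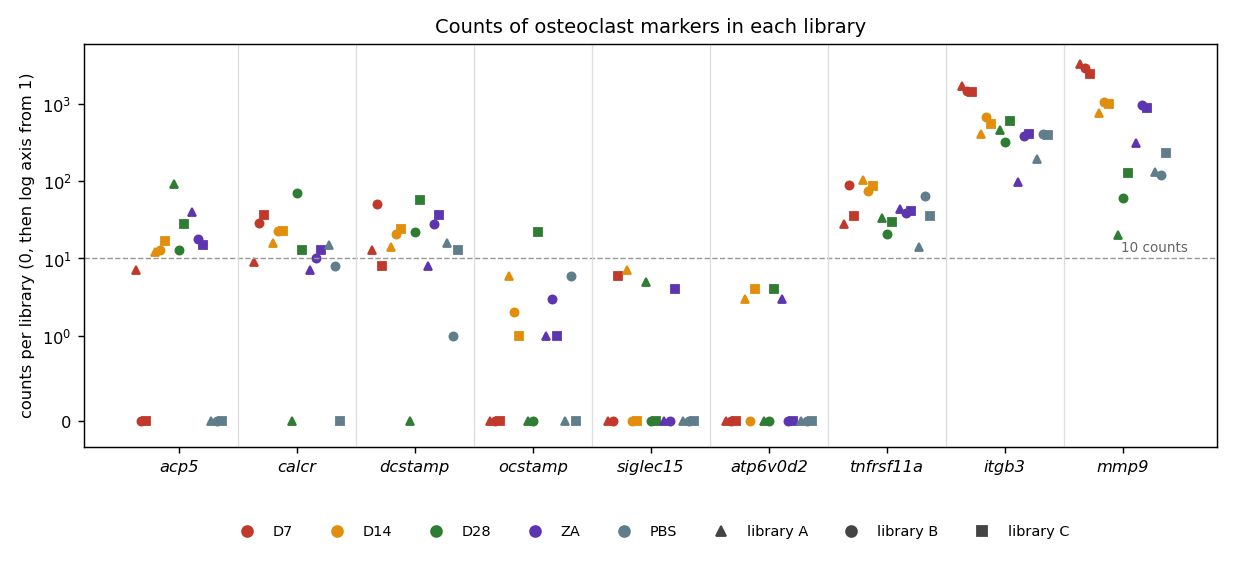
Counts of 9 osteoclast markers (horizontal axis) in each of the 15 libraries (vertical axis, 0 and then logarithmic from 1), with colours for the groups and shapes for libraries A, B and C. *siglec15* and *atp6v0d2* had counts in 4 libraries each and at most 7 and 4 counts, whereas *mmp9* reached 3280 counts in D7 A.

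The wider pathway was read from 4 gene lists. Of 19 genes of the resorption machinery that were tested, *mmp9* alone passed, lower, in each of the 3 comparisons, and the proton pump genes of the list did not pass. Of 12 genes of osteoclast fusion and lineage, 1 was lower at D14 against D7 (*itgb3*), 2 were lower at D28 against D7 (*itgb3* and *prdm1*, a transcriptional repressor, with a log2 fold change of -2.01 and edgeR adjusted p = 0.0221), and 0 passed at D28 against D14 in edgeR (2 at an unadjusted p under 0.05, 1 in DESeq2 and 0 in limma). Of all genes, 4.62%, 8.26% and 1.03% passed in edgeR in the 3 comparisons, with 2.40% lower at D14 against D7 and 4.21% lower at D28 against D7. At D28 against D14, 11.0% of all genes had an unadjusted p under 0.05 and 3.73% passed in DESeq2. Median log2 fold changes were -0.08, 0.25 and 0.28 for resorption and -0.66, -0.10 and 0.29 for fusion and lineage, beside the medians over all genes given above. Without D28 A, 2 resorption genes rose and 1 fell at D14 against D7, 3 rose and 1 fell at D28 against D7, and of the fusion and lineage genes 1 rose and 3 fell in both of these comparisons, beside the 17.1% and 20.2% of all genes that passed.

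Some genes that relay RANK and CSF1R signals inside the cell rose at D14 or D28 against D7, and most did not pass. Of 25 tested, 2 rose at D14 against D7 (2.22% of all genes were called higher) and 6 rose at D28 against D7 (4.05%), with 0 lower, and 0 passed at D28 against D14 in edgeR (2 at an unadjusted p under 0.05, 1 in DESeq2 and 0 in limma, but 1 with voom library weights). Of all genes, 11.0% had such a p at D28 against D14, 3.73% passed in DESeq2 and 4.47% passed with voom library weights. *gab2*, an adaptor protein, averaged 28.1 ± 8.77 CPM at D28 and 5.90 ± 3.21 CPM at D7, with a log2 fold change of 2.24 (edgeR adjusted p = 0.0211). *plcg2*, a phospholipase that raises calcium, rose by 2.12 at D28 and by 2.05 at D14 against D7 (edgeR adjusted p = 0.0276 and 0.0421). *pik3r1* and *ppp3cb*, subunits of PI3 kinase and calcineurin, rose by 1.67 and 1.62 at D28 (edgeR adjusted p = 0.0166 and 0.0445). Without D28 A, 6 rose and 1 fell at D14 against D7, and 7 rose and 1 fell at D28 against D7, beside 17.1% and 20.2% of all genes called. These relay genes serve many receptors besides RANK and CSF1R. The median of the list was -0.03 at D14 against D7, 0.14 at D28 against D7 and 0.21 at D28 against D14.

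Of 19 other signals and receptors by which stromal cells act on osteoclasts, 3 fell at D14 against D7, 3 fell and 1 rose at D28 against D7, and 1 rose at D28 against D14, while 4.62%, 8.26% and 1.03% of all genes passed in either direction. *tgfb1*, a growth factor that bone matrix stores, fell by 1.90 at D14 and by 1.83 at D28 against D7 (edgeR adjusted p = 0.0130 and 0.0124). *ror2*, a receptor for WNT5A, fell by 1.60 and by 1.91 in the same comparisons (edgeR adjusted p = 0.0148 and 0.00737). *ccn4*, a matricellular protein, fell by 1.97 at D28 against D7 (edgeR adjusted p = 0.0253). *lgr4*, an R-spondin receptor that has also been described as a receptor for RANKL in mammals, was at 115 ± 6.52 CPM at D28 and 34.9 ± 4.49 CPM at D7, a rise of 1.70 (edgeR adjusted p = 0.00738). *pth1r*, the parathyroid hormone receptor, fell by 1.72 at D14 against D7 and rose by 2.21 at D28 against D14 (edgeR adjusted p = 0.0290 and 0.0232). The medians of this list were -0.21, 0.01 and 0.07. Without D28 A, 3 rose and 5 fell at D14 against D7, 4 rose and 4 fell at D28 against D7, and 2 rose at D28 against D14, beside 17.1%, 20.2% and 4.09% of all genes.

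The treatment comparison asked how *col3a1*+ cells differ at D21 when osteoclasts are inhibited. No signal, receptor or osteoclast gene passed between ZA and PBS in edgeR. *acp5* was the only 1 of the 9 genes whose libraries did not overlap, with counts in every ZA library and in no PBS library. Of the 8 genes tested, 0 passed in edgeR, against 0.0421% (8) of the 18988 genes tested overall. With the letters A, B and C as a block, 0.216% (41) of all genes and 0 of the 8 passed. This pairing was taken from correlations in these same data and not from a label, and it is uncertain. All p-values of the blocked fit rest on it. *acp5* entered the fit only through its counts under ZA and so had to differ, and it is left out of the counts that follow. Of the other 7 genes, 1 had an unadjusted p under 0.05 (*tcirg1*), against 4.72% of all genes, and 0 passed in DESeq2 or limma. With the block, 3 of the 7 had an unadjusted p under 0.05, against 9.52% of all genes. Libraries did not overlap for 0 of the 7, against 10.6% of all genes. *tcirg1*, *csf1r* and *clcn7* were higher under ZA within each of the 3 letters, and 32.4% of all genes had 1 direction in all 3. The median log2 fold change of the 7 genes was 0.53, against -0.0025 over all genes.

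*acp5* had 40, 18 and 15 counts in ZA A, B and C, and 0 counts in each PBS library, or 10.3, 1.59 and 1.49 CPM under ZA and 0 CPM under PBS. All ZA libraries were thus above all PBS libraries, with ZA A, the shallowest library, far above the others. Genes at 0 were fewer under ZA in general, with 4419, 3706 and 3462 in ZA A, B and C, against 6614, 6129 and 5998 in PBS A, B and C. Like *acp5*, 23 genes in all were at 0 in every PBS library and had 10 counts or more in every ZA library, and 1 gene showed the opposite. Set against a floor of 3 counts over the PBS group, *acp5* was at least 23.8-fold higher under ZA, and at least 7.74-fold higher without PBS A and ZA A. The test did not pass in edgeR (adjusted p = 0.677, unadjusted p = 0.00307) or with the letter as a block (edgeR adjusted p = 0.297), and it passed in DESeq2 (adjusted p = 0.00591, with 0.365% of all genes passing). Since *acp5* entered these fits only through its counts under ZA, neither these p-values nor the bounds are evidence of their own for a difference. With the treatment entries read as written, which count ZA A with PBS and leave out PBS A, the fitted log2 fold change was -1.24 (edgeR adjusted p = 0.9996). The highest *acp5* levels of all 15 libraries were in D28 A and ZA A, which stand apart, whereas PBS A, which stands apart too, was at 0. The part of this in the *acp5* values was not tested beyond the values given without these libraries.

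*tcirg1* had 26.1, 54.3 and 63.7 CPM under ZA, against 19.3, 17.5 and 31.1 CPM under PBS. ZA A lay within the PBS range, and the other ZA libraries were above it. Within each letter *tcirg1* was higher under ZA. The mean was 48.0 ± 19.6 CPM under ZA and 22.6 ± 7.40 CPM under PBS, with a log2 fold change of 1.05 (SE 0.43, unadjusted p = 0.0324, edgeR adjusted p = 0.9985). With the letter as a block it was 1.02 (unadjusted p = 0.0141, edgeR adjusted p = 0.349), and without PBS A and ZA A it was 1.26 (edgeR adjusted p = 0.483). *clcn7* had 152, 117 and 89.6 CPM under ZA and 116, 63.8 and 66.3 CPM under PBS, and *nfatc1* had 77.9, 126 and 144 CPM under ZA and 226, 124 and 134 CPM under PBS. The groups overlapped for both, with log2 fold changes of 0.53 (SE 0.39) for *clcn7* and -0.51 (SE 0.38) for *nfatc1* (edgeR adjusted p = 0.9985 each). With the block *clcn7* had a log2 fold change of 0.55 (unadjusted p = 0.0447, edgeR adjusted p = 0.507). Without PBS A and ZA A it was 0.65 for *clcn7* and 0.05 for *nfatc1*.

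For the signals, *csf1* had 12.9, 49.4 and 67.6 CPM under ZA, against 24.8, 35.9 and 8.53 CPM under PBS, and *tnfsf11* had 3.87, 4.86 and 14.6 CPM under ZA, against 6.09, 6.95 and 7.48 CPM under PBS. ZA libraries lay on both sides of the PBS range for *tnfsf11*, and PBS libraries were close together. The log2 fold changes were 0.87 for *csf1* (SE 0.62) and 0.16 for *tnfsf11* (SE 0.65), with an edgeR adjusted p of 0.9985 each. Without PBS A and ZA A these were 1.39 for *csf1* (edgeR adjusted p = 0.5996) and 0.41 for *tnfsf11* (edgeR adjusted p = 0.909). *tnfrsf11b* had 21, 6 and 8 counts under ZA and 0, 0 and 17 under PBS, too few to be tested. The log2 ratio of *tnfsf11* to *tnfrsf11b* was -0.47, 3.09 and 4.12 in ZA A, B and C, against 6.89, 6.87 and 1.53 in PBS A, B and C, with means of 2.25 ± 2.41 and 5.10 ± 3.09 (SD, n = 3 each). The difference of -2.85 had p = 0.3 in a two-sided exact permutation test, where 0.1 is the smallest possible. The ratios of PBS A and PBS B were set by the added 0.5, since *tnfrsf11b* was at 0 there. With *tnfrsf11b* at a floor of 3 counts in each of these libraries they were 4.30 and 4.27, and the difference was then -1.12 (exact permutation p = 0.5). ZA A and PBS C were the low libraries, and the difference with 0.5 added was 0.96 with the treatment entries read as written.

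For the receptors, *csf1r* had 20.4, 15.5 and 33.9 CPM under ZA, against 6.09, 10.3 and 21.3 CPM under PBS, with overlap between the groups and a log2 fold change of 0.88 (SE 0.54, edgeR adjusted p = 0.9985). Within each letter it was higher under ZA, with a log2 fold change of 0.97 in the blocked fit (unadjusted p = 0.0472, edgeR adjusted p = 0.514) and of 0.62 without PBS A and ZA A (edgeR adjusted p = 0.810). *tnfrsf11a* had 11.4, 3.45 and 4.08 CPM under ZA, against 1.446, 7.67 and 5.24 CPM under PBS. Its log2 fold change of 0.40 (SE 0.83, edgeR adjusted p = 0.9985) was -0.79 without PBS A and ZA A, the libraries that held its highest and lowest level. Of 9 other macrophage and leukocyte markers tested, 0 passed in edgeR, 1 had an unadjusted p under 0.05 (3 with the block), and 0 passed in DESeq2 or limma, with a median log2 fold change of 0.70. Of all genes, 4.72% had such a p, and 9.52% with the block. The 14 listed markers, *csf1r* included, summed to 122 to 276 CPM under ZA and 50.4 to 216 CPM under PBS. Epidermal markers summed to 4197 to 6034 CPM under ZA and 1433 to 4148 CPM under PBS without overlap, and fibroblast markers to 10350 to 25778 CPM under ZA and 20007 to 51376 CPM under PBS. The part of these other cells in the values of the 9 genes was not tested.

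In the 4 pathway lists, 0 genes passed between ZA and PBS in edgeR out of 19 for resorption, 11 for fusion and lineage, 24 for the relay and 19 for other stromal signals, with 1, 1, 0 and 1 at an unadjusted p under 0.05 (4.72% of all genes). With the letter as a block these were 3, 3, 3 and 2, where 9.52% of all genes had such a p, and 0 passed on the adjusted p. DESeq2 passed 1 (*mmp9*, higher under ZA), 0, 0 and 0, with 0.365% of all genes passing, and limma passed 0 in each list. Medians were 0.33, 0.61, 0.08 and 0.05, against -0.0025 over all genes. The gene of these lists with the smallest unadjusted p was *mmp9*, chosen after its values were seen. It had 79.7, 85.1 and 88.1 CPM under ZA, against 13.4, 14.5 and 35.2 CPM under PBS. The groups did not overlap and the ZA libraries were close together, with a log2 fold change of 1.99 (SE 0.44, edgeR adjusted p = 0.440). *dcstamp* had 8, 28 and 37 counts under ZA and 16, 1 and 13 under PBS, or 2.06, 2.48 and 3.68 CPM and 1.65, 0.120 and 1.95 CPM. The ZA libraries were above the PBS libraries in CPM, and the log2 fold change was 1.12 (SE 1.21, edgeR adjusted p = 0.9985). ZA A and PBS C were close, with 1 count worth 0.258 CPM in ZA A. In counts ZA A lay below PBS C, so that this separation is within counting error. Apart from *acp5*, *mmp9* and *dcstamp*, the listed osteoclast markers overlapped between the groups. *itgb3* had 25.5, 34.4 and 40.5 CPM under ZA and 20.1, 49.3 and 59.6 CPM under PBS. *calcr* had 7, 10 and 13 counts under ZA and 15, 8 and 0 under PBS, and *ocstamp* had 1, 3 and 1 under ZA and 0, 6 and 0 under PBS.

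The genes whose pattern over the 15 libraries was most like that of *csf1r* were *tulp1*, *fam171b* and *gnpnat1*, with root mean square differences of centred log2 levels of 0.52, 0.52 and 0.55, against a median of 1.25 over 13475 genes compared. For *tnfsf11* they were *srpx*, *tgfbi* and *fbxl14*, with 0.41, 0.47 and 0.48, against a median of 1.14. Both patterns include the differences between timepoints. Among the 9 genes themselves, *nfatc1* and *tcirg1* were the closest pair with 0.65, followed by *clcn7* and *tcirg1* with 0.67, and *csf1r* lay closest to *tcirg1* with 0.77. This measure is small between any genes that vary little. *clcn7*, *tcirg1* and *nfatc1* had the smallest ranges of the 9 genes, at 2.54-fold, 3.64-fold and 4.05-fold in CPM. For ZA against PBS, *nfatc1* and *tcirg1* had log2 fold changes of -0.51 and 1.05, neither of which passed.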

How the data were processed

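RNA of sorted *col3a1*+ tail cells was sequenced after rRNA depletion with a stranded kit. Alignment by the authors used STAR 2.7.6a and the assembly rAnoCar3.1.pri, and their processing notes name SAMtools 1.17 and DESeq2 1.45.1. The deposited values were whole-number counts per gene. They were named as normalized, but library totals and size factors differed, so they were treated as counts. An adjustment of single genes by the authors cannot be told from the values. The counting tool, its strand setting and the treatment of duplicates are not given in the sources used here.

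A gene entered a fit with 10 counts or more in 3 or more of its libraries. Tests used edgeR 4.0.16 (TMM, quasi-likelihood, Benjamini-Hochberg over all genes tested). The 9 libraries of the time course formed 1 fit, and the 6 libraries of ZA and PBS another. The standard error was taken as the absolute log2 fold change over the square root of F. Alternatives used DESeq2 1.42.0, limma 3.58.1, other filters, library weights, a replicate block, 1 fit over 15 libraries and libraries left out, in R 4.3.3. The fits were tested on simulated data. Python 3.11.15 and matplotlib 3.10.9 drew the plots. The bound for *acp5* without PBS A and ZA A and the ratio with *tnfrsf11b* at its floor were added after the data were seen.

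By symbol, 26339 genes matched RefSeq, which gave coordinates, and 184 did not. The 10 genes and the lists were chosen with earlier results of these data known. Named besides them were up to 4 passing genes per list and comparison and the 3 genes most like *csf1r* and *tnfsf11*. The same rule named *ctsk*, which has no value here. A passing gene that it also named is not reported here. The study describes 3 tails per treatment and 3 repeats per timepoint, and the labels do not say which animal gave which library.

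With group means removed, the correlation between same-lettered PBS and ZA libraries was 0.21 (A), 0.17 (B) and 0.13 (C) across genes, and the letters were therefore taken to pair them in a blocked fit. No sequences are shown.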

Additional observations from a re-analysis of the deposited data

How the results depend on the processing

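Depth limits *acp5* and *tnfrsf11b*, which had few counts in most libraries. With 3 libraries per group, the calls of *csf1* and *csf1r* were lost in several fits with 1 library left out. In each of those fits fewer of all genes passed than in the main fit, for example 68 at D14 against D7 without D7 B, against 986. Over 645 values of the 9 genes under the alternatives, 581 kept their direction and their side of the threshold, 17 were no longer past it, 13 came past it and 34 changed sign. The cause of these shifts was not tested. Of the 9 genes at D14 against D7, 4 passed in place of 2 with voom library weights (4476 of all genes in place of 986) and 0 to 3 with 1 library left out. At D28 against D7, 3 passed in place of 1 in DESeq2 (17.7% of all genes in place of 8.26%), 2 in limma at prior counts of 0.5, 1 and 5 (8.29% to 9.57% of all genes), and 0 with voom weights, in 1 fit over 15 libraries or with a log2 fold change over 2 required as well, and 0 to 2 with 1 library left out. The passes of DESeq2 and of limma at these prior counts include *acp5*, which entered the fit only through its counts at D14 and D28. At D28 against D14, 1 passed in place of 0 in DESeq2 and 0 to 1 with 1 library left out. For ZA against PBS 1 passed in DESeq2, which was *acp5*, a gene that entered the fit only through its counts under ZA.

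In the time course the letters did not pair the libraries (correlations from -0.11 to 0.11). A replicate block there gave 1 call in place of 2 at D14 against D7, since *csf1r* missed the threshold (adjusted p = 0.0546), and 578, 809 and 109 calls over all genes in place of 986, 1761 and 219. In ZA against PBS the letters were taken to pair from correlations in these same data and not from a label. The replicate block altered no call of the 9 genes there.

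Values near 0 changed sign. *tnfrsf11b* at D28 against D7 was -0.23, -0.21 and -0.11 in limma at prior counts of 0.5, 1 and 5, -0.81 with voom weights, -0.0254 without a filter, -0.20 with the replicate block and -0.51 to 0.45 with 1 library left out. *nfatc1* there was 0.0676 with voom weights and -0.65 to 0.11 with 1 left out. With 1 library left out, *clcn7* was -0.17 to 0.0687 at D14 against D7 (0.0462 with a mean count of at least 50), -0.0436 to 0.28 at D28 against D7 and -0.0129 to 0.36 at D28 against D14, and *tnfrsf11a* at D14 against D7 was -0.17 to 0.75. For ZA against PBS, *tnfsf11* was -0.0808, -0.0784 and -0.0613 in limma, -0.0112 with voom weights, -0.0764 with the replicate block and -0.62 to 0.45 with 1 left out. *tnfrsf11a* was -0.0718 with voom weights, -0.79 without PBS A and ZA A and -0.40 to 0.92 with 1 left out. *nfatc1* was 0.0475 without PBS A and ZA A. With the treatment entries read as written, *tnfrsf11a* was -1.19, *nfatc1* 0.20, *acp5* -1.24 and the log2 ratio of *tnfsf11* to *tnfrsf11b* 0.96.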
